A study of Mus musculus with 63 samples.

Results

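Tcf7, Lef1, Tox, Tox2 and Sox4 encode 5 transcription factors that bind DNA through an HMG box and act in early lymphocyte development. They were taken by symbol from a table of 23420 rows, and each symbol matched 1 row. Of the rows, 27 had names in the form of dates and were left out. Their transcripts were measured in single mouse common helper innate lymphoid progenitors (CHILPs), the marrow precursors of the helper innate lymphoid cells (ILCs). The WT group held wild-type cells, 29 libraries, sorted for CD45.2, CD127 and α4β7, with Sca1 mid or negative, and against lineage markers, CD135 and CD25. The iR9 group, a name the labels do not spell out, held 34 libraries of GFP+ cells with that same surface phenotype, derived from pluripotent stem cells and sorted from the marrow of Rag2-/-Il2rg-/- recipients at 4 weeks after they had been transplanted. Both groups were of the C57BL/6 strain. No animal or culture is named per cell, so each group is 1 sample of many cells, and the values below are descriptions over cells without a test between groups.

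TCF-1 (Tcf7) and LEF-1 (Lef1) are close relatives that bind the same DNA motif, recruit Groucho/TLE corepressors, and can pair with β-catenin when Wnt signalling stabilises it. TCF-1 is needed for normal numbers of ILC progenitors and for the T lineage, and LEF-1 overlaps with it in T cell precursors. TOX is required for the development of ILCs and of CD4 T cells, and its relative TOX2 has been tied to natural killer cell maturation. SOX4 is a SOX family activator of early B and T lymphopoiesis.

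The genes lie on 5 chromosomes of GRCm38 (GENCODE M21 gene bounds): Tcf7 on chromosome 11 from 52252371 to 52283014 (minus strand), Lef1 on chromosome 3 from 131110471 to 131224356 (plus), Tox on chromosome 4 from 6686353 to 6991557 (minus), Tox2 on chromosome 2 from 163203125 to 163324170 (plus) and Sox4 on chromosome 13 from 28948919 to 28953713 (minus). Tcf7, Lef1, Tox and Sox4 each overlap 1 annotated gene on the other strand, and Tcf7 and Lef1 each overlap 1 more on their own strand. The library kit is not stated to mark strand, so strand cannot tell reads of those partners from reads of the member. Gene bounds alone were compared, and overlap of exons was not tested.

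Promoter windows are shown as background, because TCF/LEF, GATA and E protein factors are known regulators of these lineages. Their motifs and that of RUNX factors were searched, and whether such factors act on the members was not tested. Each window is the 250 bases before the most 5′ start in RefSeq (GRCm38.p6), written 5′ to 3′ on the strand of the gene, with motif matches in capitals. The windows are chr3:131110047-131110296 (plus) for Lef1, chr2:163202877-163203126 (plus) for Tox2 and chr13:28953700-28953949 (minus) for Sox4.
Lef1: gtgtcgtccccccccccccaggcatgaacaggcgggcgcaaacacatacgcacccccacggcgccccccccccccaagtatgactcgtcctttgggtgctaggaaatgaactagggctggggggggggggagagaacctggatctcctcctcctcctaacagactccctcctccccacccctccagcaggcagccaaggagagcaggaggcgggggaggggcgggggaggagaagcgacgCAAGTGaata
Tox2: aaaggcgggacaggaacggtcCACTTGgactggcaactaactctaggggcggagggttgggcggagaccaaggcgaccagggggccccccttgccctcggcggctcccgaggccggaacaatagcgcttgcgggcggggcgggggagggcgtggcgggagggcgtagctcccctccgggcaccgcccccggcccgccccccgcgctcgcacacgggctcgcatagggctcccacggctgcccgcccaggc
Sox4: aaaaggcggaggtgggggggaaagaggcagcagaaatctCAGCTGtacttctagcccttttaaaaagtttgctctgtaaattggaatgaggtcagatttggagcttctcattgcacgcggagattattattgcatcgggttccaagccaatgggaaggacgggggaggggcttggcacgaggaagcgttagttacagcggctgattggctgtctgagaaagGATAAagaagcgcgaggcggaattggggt
The motifs, on both strands, were CTTTGNT for TCF/LEF factors, GATAA for GATA factors, TGTGGT for RUNX factors and the E-box CANNTG, and no matches overlapped in the windows shown. Lef1 held 1 E-box that begins 10 bases before the start, Tox2 held 1 at 229 bases, and Sox4 held 1 at 211 bases and a GATA match at 29 bases. None of the 3 windows held the TCF/LEF or RUNX letters. Of 32851 RefSeq promoter windows of this length, 66.2% held the E-box, 22.6% GATAA, 15.98% CTTTGNT and 14.05% TGTGGT, so each match is of a common kind. The Tcf7 window, whose letters read on as an open reading frame from an ATG, is not printed. Tox is named only.

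Values are TPM, transcript abundance scaled for transcript length and to the same total in each library, so levels can be compared between genes, while read depth is unknown. A transcript is called detected at 10 TPM or more. In no cell did any member lie between 3.59 and 12.8 TPM, so detection at 10 divided the members' values at a gap. Of the iR9 libraries, 3 had titles ending in 1, 15 in 2 and 16 in 3. The 15 same-number libraries of suffixes 2 and 3 correlated at r of 0.974 to 0.992 across genes, against at most 0.408 for different numbers, and were averaged, which gave 19 iR9 cells. The labels do not say whether such libraries came from 1 cell, so this number of cells rests on the correlation. Suffix 1 stands apart: cell 12-1 correlated with libraries 12-2 and 12-3 at only 0.257 and 0.277. A median of 2938 genes reached 1 TPM in WT cells (1189 to 5939), 3033 in the 3 iR9 cells of suffix 1 (2093 to 3238) and 1685 in the other 16 (1514 to 2174). Every WT title ends in 1, so for the 16 other iR9 cells suffix and source cannot be told apart.

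For the members, same-number libraries made the same calls. Over 5 genes and 15 pairs, 5 of 75 values were detected in both libraries, 70 in neither and 0 in only 1. The 5 were Tcf7 in cells 8 (1176 and 1129 TPM), 19 (73.3 and 68.3 TPM) and 25 (1352 and 1322 TPM) and Lef1 in cells 12 (53.0 and 64.8 TPM) and 32 (204.1 and 177.1 TPM). At 1 TPM the libraries were less alike: 6 values were called in both and 7 in only 1, none of the 7 above 2.71 TPM. Over all genes, 97.6% of values detected at 10 TPM in either library were detected in both, against 68.8% at 1 TPM.

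**Figure D1:**
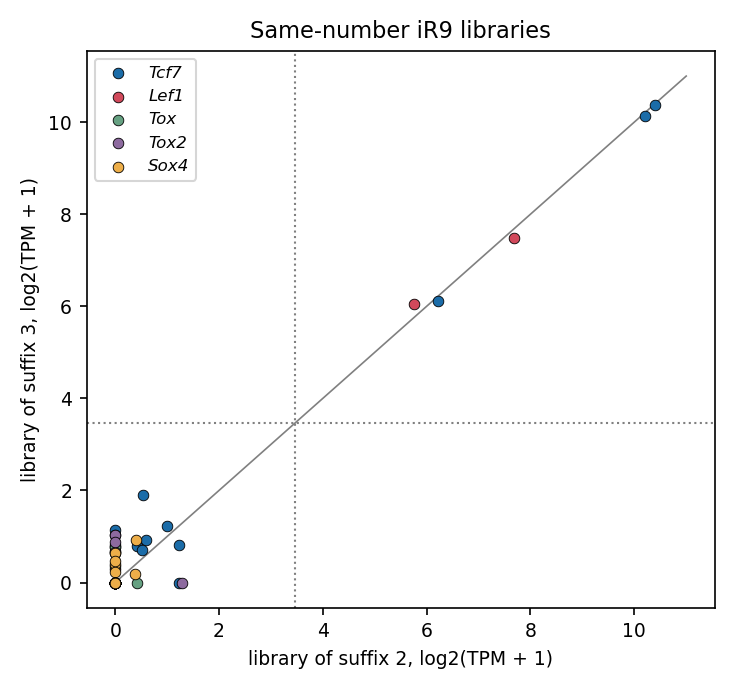
Each point is 1 member in 1 cell number, with log2(TPM + 1) in the library of suffix 2 on the x axis and of suffix 3 on the y axis; the line marks equality and the dotted lines 10 TPM. The 5 values above 10 TPM lie near the line, and the other 70 lie below 10 TPM in both libraries.

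All 5 members had lower means in iR9 than in WT cells. On the scale of log2(TPM + 1) the difference, iR9 minus WT, was -5.06 for Tox, -4.80 for Tcf7, -3.72 for Sox4, -3.03 for Tox2 and -1.48 for Lef1. All 5 thus stood at -1 or lower, as did 44.5% of the 7421 genes at 1 TPM or more in at least 10% of the 48 cells, and 0 stood at 1 or higher, against 5.15%. The median of all these genes was -0.88 and that of the members -3.72. Relative to the all-gene median the differences were -4.19, -3.92, -2.85, -2.15 and, for Lef1, -0.60. A difference on this scale understates the change of low genes.

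**Figure D2:**
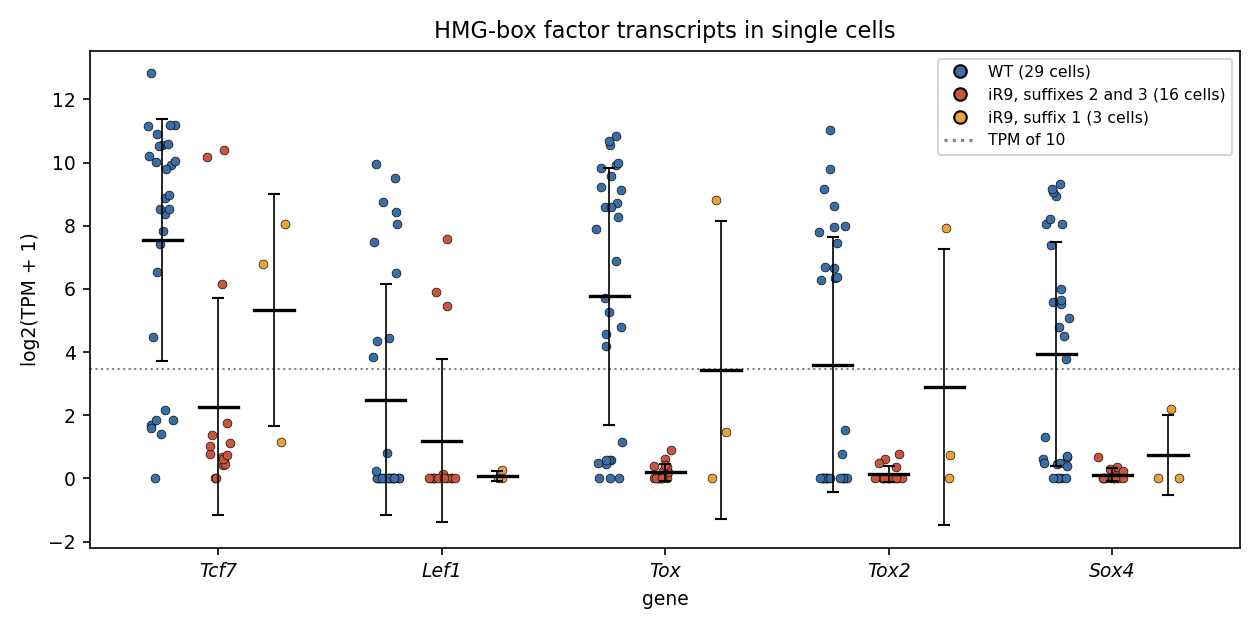
Points give log2(TPM + 1) of each cell (y axis) for the 5 genes (x axis) in WT cells, iR9 cells of suffixes 2 and 3, and iR9 cells of suffix 1; thick lines are means, bars 1 SD over cells, and the dotted line 10 TPM. WT cells form a high and a low cloud for each gene, whereas of the 16 iR9 cells of suffixes 2 and 3 only 3 for Tcf7 and 3 for Lef1 lie above the line.

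Tcf7 was the most abundant member in WT cells. Its TPM there had a lowest value of 0, a median of 472.5 and a highest of 7269 (cell 10-1). It was detected in 22 of 29 WT cells (75.9%, exact Clopper-Pearson 95% interval 56.5 to 89.7, which like all intervals here covers counting error only), and the other 7 had at most 3.53 TPM. In iR9 it was detected in 5 of 19 cells (26.3%, 9.15 to 51.2), at 70.8 TPM in cell 19, 110.9 in 17-1, 265.7 in 14-1, 1152 in 8 and 1337 in 25, with at most 2.39 TPM in the other 14. The means of log2(TPM + 1) were 7.55 ± 3.83 (SD, n = 29) and 2.75 ± 3.56 (SD, n = 19). The groups overlapped: cells 8 and 25 lay above the median of the 22 WT cells with detected Tcf7, 1010 TPM. In iR9 cells Tcf7 transcript was thus detected in fewer cells, and in those cells its level reached the WT range.

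Lef1 was the least abundant member in WT cells and the only one besides Tcf7 detected in iR9 cells of suffixes 2 and 3. It was detected in 10 of 29 WT cells (34.5%, 17.9 to 54.3), at 13.3 to 984 TPM with a median of 222 TPM, and was listed at 0 in 17. In iR9 it was detected in 3 of 19 cells (15.8%, 3.38 to 39.6), at 43.2 TPM in cell 28-3, 58.9 in cell 12 and 190.6 in cell 32, and the other 16 had at most 0.206 TPM. Means were 2.50 ± 3.65 (SD, n = 29) and 1.02 ± 2.39 (SD, n = 19). The intervals of both shares overlap, which is no test of a difference between the groups. The 3 iR9 cells with Lef1 had 2.39, 1.18 and 0.535 TPM of Tcf7, so they were not the 5 cells with Tcf7. In iR9 Tcf7 was in 5 of 19 cells, so 3 cells are too few to show that Lef1 and Tcf7 are kept apart. In WT 8 of the 10 cells with Lef1 also had Tcf7, near its share of 22 of 29 WT cells. The exceptions were 1-1 (725 TPM of Lef1) and 28-1 (13.3 TPM).

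Tox was detected in 20 of 29 WT cells (69.0%, 49.2 to 84.7), with a lowest value of 0, a median of 117.8 and a highest of 1826 TPM over all WT cells. In iR9 1 of 19 cells had it (5.26%, 0.133 to 26.03), the suffix 1 cell 14-1 at 446 TPM. The other 18 had at most 1.74 TPM, and the 16 of suffixes 2 and 3 at most 0.850 TPM (0 of 16, upper bound 20.6%). Means were 5.77 ± 4.06 (SD, n = 29) and 0.70 ± 2.00 (SD, n = 19).

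Tox2 was detected in 13 of 29 WT cells (44.8%, 26.4 to 64.3), at 77.5 to 2113 TPM with a median of 225 TPM, and was listed at 0 in 14. Cell 14-1 was again the 1 iR9 cell that had it (5.26%, 0.133 to 26.03), at 243 TPM, and the other 18 had at most 0.715 TPM. Means were 3.60 ± 4.04 (SD, n = 29) and 0.58 ± 1.80 (SD, n = 19). For both TOX genes the iR9 value above 10 TPM is therefore that of 1 cell.

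Sox4 was detected in 16 of 29 WT cells (55.2%, 35.7 to 73.6), with a lowest value of 0, a median of 21.6 and a highest of 647 TPM over all WT cells. It was detected in 0 of 19 iR9 cells (upper bound 17.6%), with a highest value of 3.59 TPM in cell 17-1. Means were 3.94 ± 3.54 (SD, n = 29) and 0.22 ± 0.51 (SD, n = 19). WT cells 5-1, 6-1, 16-1 and 29-1 combined the lowest Id2 with 1121 to 2137 TPM of Dntt, the terminal transferase of early lymphoid cells. All had Sox4, at 44.8, 165.7, 538.8 and 46.6 TPM. All were at 0 for Lef1, as were 17 of the 29 WT cells. Tcf7 was detected in 6-1, 16-1 and 29-1, Tox in 16-1 and 29-1, and Tox2 in 29-1.

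Of the 2863 genes detected in at least 10 WT cells, 12.8% were detected in at most 1 iR9 cell, and 3 of the 5 members (Tox, Tox2 and Sox4) belonged to these. In order of WT mean the members ran Tcf7, Tox, Sox4, Tox2 and Lef1, and each step between neighbours was smaller than the SD over cells of either. In iR9 the order was Tcf7, Lef1, Tox, Tox2 and Sox4, again with steps smaller than the larger SD of the neighbours.

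The 3 suffix 1 cells, whose median number of genes was near that of WT, differed among themselves. Cell 14-1 had Tcf7, Tox and Tox2, 17-1 had Tcf7 alone and 12-1 had none. Their differences from WT were -2.22 for Tcf7, -2.41 for Lef1, -2.35 for Tox, -0.71 for Tox2 and -3.21 for Sox4, with an all-gene median of -0.67. For the other 16 iR9 cells they were -5.28, -1.30, -5.57, -3.46 and -3.82, with an all-gene median of -0.98. Cell 12-1 held 9 of 10 mast cell and basophil markers, with 106595 TPM of the tryptase gene Tpsb2.

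More members were detected per cell in WT than in iR9 cells, where the share of cells with each single member was also lower. Among WT cells 3, 4, 5, 6, 6 and 5 cells had 0, 1, 2, 3, 4 and 5 members, and 17 of 29 had at least 3 (58.6%, 38.9 to 76.5). Among iR9 cells 11 had 0, 7 had 1 and 1 had 3, so 1 of 19 had at least 3 (5.26%, 0.133 to 26.03). That cell was 14-1. The 5 WT cells with all members were 7-1, 10-1, 18-1, 23-1 and 31-1.

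**Figure D3:**
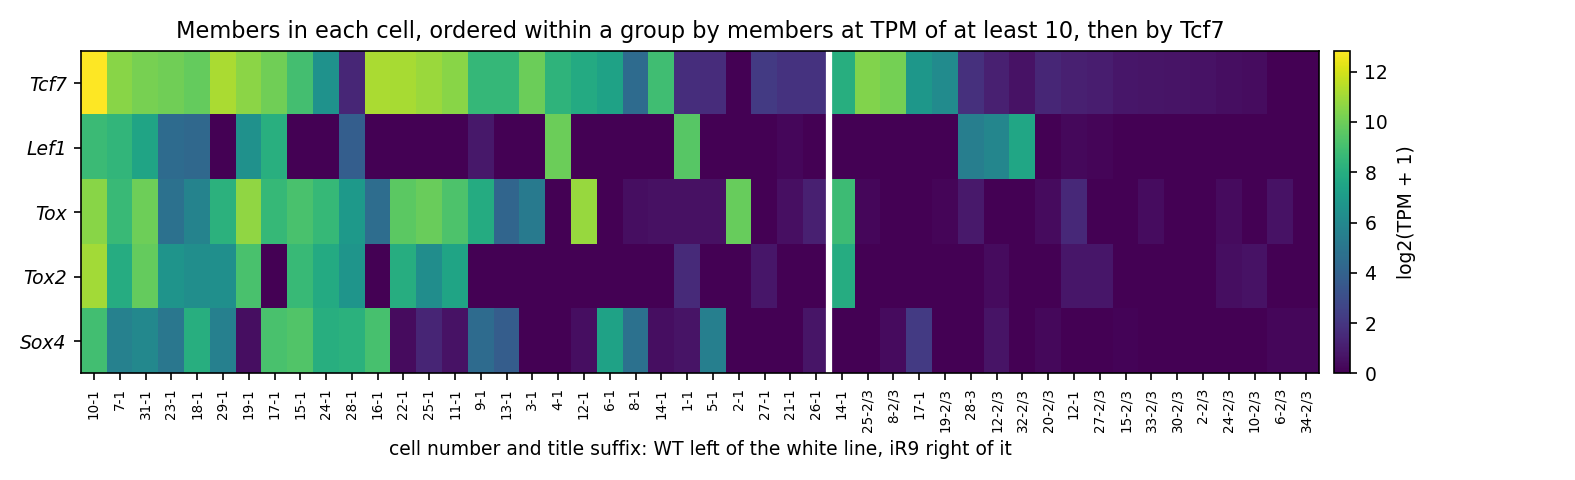
Columns are the 48 cells, WT left of the white line and iR9 right of it, ordered within a group by the number of members detected and then by Tcf7; colour is log2(TPM + 1). The left columns of WT are bright in 4 or 5 rows, while iR9 columns other than 14-1 are bright in at most 1 row.

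Among pairs, Tcf7 and Tox were together in 18 of 29 WT cells (62.1%, 42.3 to 79.3). Singly, Tcf7 was in 22 of these 29 cells, Tox in 20, Sox4 in 16, Tox2 in 13 and Lef1 in 10. Members this common share cells by their single shares alone, and whether any pair exceeded that overlap was not tested. Tox2 was detected only where Tox was, in 13 of 13 WT cells, whereas 7 cells had Tox without Tox2. Tcf7 and Tox2 shared 12 WT cells, Tcf7 and Sox4 14, Tox and Sox4 13, Tox2 and Sox4 9, and Lef1 shared 8 with Tcf7, 8 with Tox, 7 with Tox2 and 7 with Sox4. In iR9 the pairs among Tcf7, Tox and Tox2 were each found in 1 cell of 19 (5.26%, 0.133 to 26.03), again 14-1. The other 7 pairs were found in 0 of 19 (upper bound 17.6%).

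**Figure D4:**
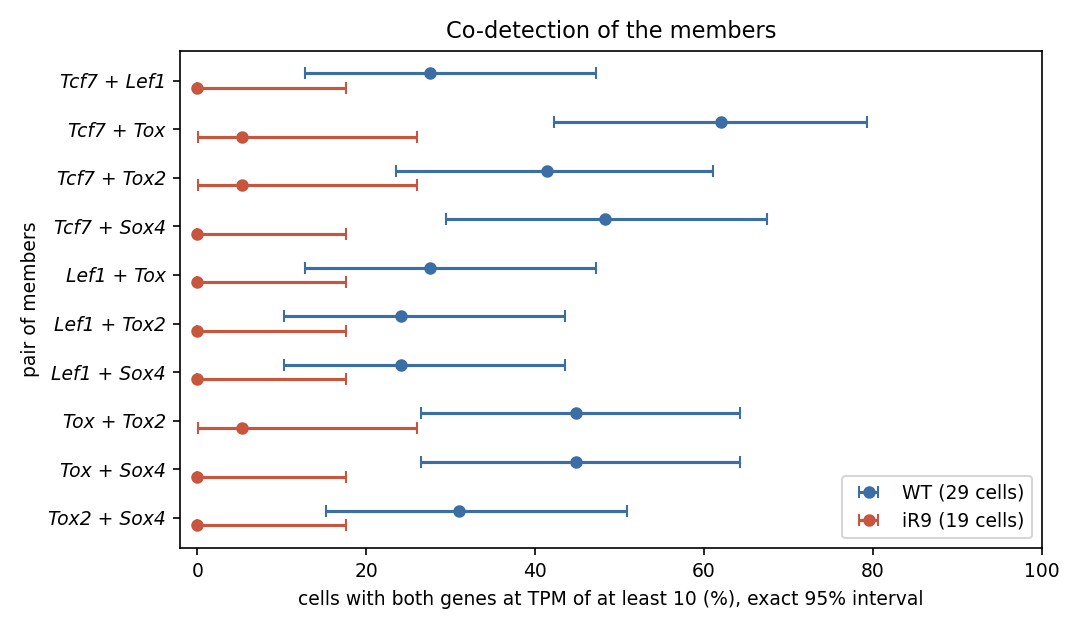
For each pair of members (y axis) the points give the share of WT and of iR9 cells with both genes at 10 TPM or more (x axis, percent), and bars are exact 95% intervals. WT shares run from 24.1% to 62.1%, and iR9 shares are 0 or 5.26%.

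Across the 29 WT cells, Spearman's rho of TPM was highest between Tox and Tox2 (0.600), then Tcf7 and Tox (0.496) and Tcf7 and Tox2 (0.491). The other 7 pairs lay between 0.095 and 0.325. These are descriptions over cells that share their source and preparation. The median number of genes at 1 TPM was 3551 (2240 to 5589) in the 17 WT cells with at least 3 members and 1946 (1189 to 5939) in the other 12. By count of members from 0 to 5 the medians were 2040, 1971.5, 1703, 2620, 3348 and 3954, and cells 8-1 (5939 genes) and 6-1 (5161 genes) had 2 members each. Its rho with TPM was 0.523 for Sox4, 0.365 for Tcf7, 0.332 for Tox2, 0.103 for Lef1 and 0.058 for Tox, and its part in the co-detection was not tested. In the 16 WT cells that fell in the iR9 range of 1514 to 3238 genes, Tcf7 was detected in 11, Tox in 10, Sox4 in 7, Tox2 in 5 and Lef1 in 4, and 8 had at least 3 members. Against these 16 cells the differences were -4.41 for Tcf7, -4.31 for Tox, -3.18 for Sox4, -1.79 for Tox2 and -0.89 for Lef1.

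Marker lists of other cells moved with the groups. T cells carry TCF-1, LEF-1 and TOX. Cd3e and Cd3g stayed below 10 TPM in all 48 cells (at most 8.44 and 3.07 TPM), Cd8a and Cd8b1 were listed at 0, and Cd3d passed 10 TPM in 2 WT cells (at most 24.8 TPM). At least 3 of the 9 T cell markers with a row were detected in 1 WT and 0 iR9 cells, and their summed level was 0 to 2080 TPM in WT and 1.09 to 2531 TPM in iR9 cells (medians 209.8 and 651.6), with Lat, an adaptor also used outside T cells, detected in 18 WT and 11 iR9 cells. Of 8 common lymphoid progenitor markers at least 3 were detected in 7 WT and 0 iR9 cells, with sums of 4.77 to 49998 and 3.27 to 1722 TPM. Of 13 dendritic cell markers at least 3 were detected in 21 WT cells and 1 iR9 cell (sums of 3.81 to 159738 and 2.81 to 13104 TPM), although the median sum was 513 TPM in WT and 828 TPM in iR9, and of 15 cell cycle genes in 11 WT and 0 iR9 cells (10.2 to 14488 and 0.47 to 1446 TPM). Lists of later ILC fates moved in both directions. The natural killer and ILC1 list had median sums of 1291 TPM in WT and 0.508 TPM in iR9, with at least 3 markers in 5 and 0 cells. The ILC2 list had 524 and 1.03 TPM, with at least 3 markers in 3 and 0 cells. It includes Gata3, which also acts in earlier ILC and T cell specification and alone had medians of 343.1 and 0.504 TPM. The ILC3 and LTi list had 673 and 6438 TPM, with at least 3 markers in 7 and 11 cells, and the erythroid list 1.03 and 774.7 TPM, with at least 3 markers in 1 and 5 cells. The part of these lists in the lower iR9 means was not tested. WT cells 21-1 and 26-1, with 35871 and 126914 TPM of the lysozyme gene Lyz2, had no member. Without these 2 cells and iR9 cell 12-1 the differences were -5.47 for Tox, -5.13 for Tcf7, -3.98 for Sox4, -3.31 for Tox2 and -1.61 for Lef1, and 17 of 27 WT cells had at least 3 members. Leaving out instead the 4 cells with at least 3 myeloid or at least 3 mast cell and basophil markers (WT 4-1, 21-1 and 28-1 and iR9 12-1) gave -5.49, -5.13, -3.85, -3.20 and -1.18, and 16 of 26 WT cells had at least 3 members.

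Other early ILC factors were read in the same cells as the members. Id2, the E protein antagonist of all ILCs, was detected in every cell of both groups, though at only 15.6 and 26.3 TPM in WT cells 5-1 and 16-1. Zbtb16, which encodes PLZF of ILC precursors, was detected in 12 WT cells, all with Tcf7, and 10 of them also had Tox and 10 had Tox2. Over all 29 WT cells Tcf7 was in 22, Tox in 20 and Tox2 in 13. Zbtb16 was listed at 0 in all iR9 cells, including the 5 with Tcf7. Gata3, a factor of ILC and T cell specification, was detected in 24 of 29 WT and 8 of 19 iR9 cells, and in 5 of the 16 iR9 cells of suffixes 2 and 3. It was detected in 20 of the 22 WT cells with Tcf7 and 4 of the 7 without, and in 2 of the 5 iR9 cells with Tcf7, both of suffix 1 (14-1 and 17-1). It was detected in the 10 WT cells with Lef1 and in 1 of the 3 iR9 cells with Lef1, counts that lie near the shares over all cells of each group. Bcl11b, a factor of T cell and ILC2 commitment, was detected in 8 WT cells, 7 with Tcf7 and 7 with Tox, and was listed at 0 in iR9 cells. Of 15 measured early ILC factors and receptors 12 had a lower iR9 mean, 9 of them by 1 or more (44.5% over all genes), and 2 had a mean higher by 1 or more (5.15% over all genes), with a median of -1.69. The largest differences were those of Cxcr6, a chemokine receptor of ILC precursors (4.68, and 2.38 for suffix 1), Gata3 (-4.11, and -0.85 for suffix 1), Pdcd1, encoding PD-1 (-3.35, and -3.01 for suffix 1), and Zbtb16 (-3.16 in both).

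The relatives of the members were scarce. Of Tcf7l1, Tcf7l2, Tox3 and Tox4 only Tox4 was measured in enough cells, at a difference of -1.60 overall and 0.57 for the suffix 1 cells. Tcf7l2 and Tox3 were listed at 0 everywhere. None of 9 further SOX genes was measured in enough cells. Of 12 measured HMG-box proteins outside these families all 12 had a lower iR9 mean, 9 by 1 or more, against 44.5% of all genes (median -1.57, beside -0.88 over all genes), led by the chromatin remodeller subunit gene Pbrm1 (-3.47), the histone chaperone gene Ssrp1 (-2.60), Hmg20b (-2.45) and the chromatin protein gene Hmgb2 (-1.78). In the suffix 1 cells Ssrp1 stood at 0.30, but Pbrm1 at -3.64, Hmgb2 at -2.86 and Hmg20b at -2.45, and the list median at -1.16.

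Cofactors of TCF proteins were present in WT cells. Ctnnb1, encoding β-catenin, was detected in 13 of 29 WT cells, 11 of them with Tcf7, and in 2 of 19 iR9 cells, 1 with Tcf7 (difference -2.74, and -0.59 for suffix 1). Tcf7 was in 22 of 29 WT cells, so the WT count of 11 lies near its share over all WT cells. All 9 measured genes of β-catenin and its destruction complex had a lower mean, but only 3 by 1 or more (median -0.86, near that of all genes, and 0.80 for suffix 1). After Ctnnb1 came the kinase gene Gsk3b (-1.86, and 0.96 for suffix 1), the β-catenin coactivator gene Bcl9 (-1.06 in both) and the ubiquitin ligase subunit gene Fbxw11 (-0.96, and 0.44 for suffix 1). Lrp6, a Wnt coreceptor, was the 1 measured gene among 11 Wnt receptors (-0.80). The list of Groucho/TLE proteins and other corepressors had 6 of 8 genes lower by 1 or more, against 44.5% of all genes, and a median of -2.26 (-0.84 for suffix 1). Its largest differences were those of the histone deacetylase genes Hdac2 (-4.20, and -4.77 for suffix 1), Hdac3 (-3.25, and -3.29 for suffix 1) and Hdac1 (-2.77, and -0.69 for suffix 1). The corepressor gene Ctbp1 came next (-2.34, and -0.47 for suffix 1).

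Of 14 genes tied to TCF-1 in T cells and progenitors 8 were measured in enough cells. Of these, 7 were lower by 1 or more, against 44.5% of all genes (median -2.43). The filter, as for all lists here, pools both groups, so a gene can pass it through WT cells alone. Of the genes it left out, Id3 (0.06), Slamf6 (0.30) and S1pr1 (0.61) were higher in iR9. Bach2 (-0.15), Foxo1 (-0.73) and Il6st (-0.54) were lower. The costimulatory receptor gene Cd27 (-4.29), the chromatin organiser gene Satb1 (-2.90) and the progenitor factor gene Myb (-2.86) were detected in 14, 13 and 11 WT cells and in 0 iR9 cells each. Genes of the exhaustion programme that TOX drives in T cells had 3 of 5 lower by 1 or more, near the 44.5% of all genes (median -1.99): Pdcd1 (-3.35), the calcineurin target gene Nfatc1 (-2.24, but 1.31 for suffix 1) and Nr4a1 (-1.99), with Nr4a2 at -0.34 and Batf, named after its value was seen, at 0.21.

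**Figure D5:**
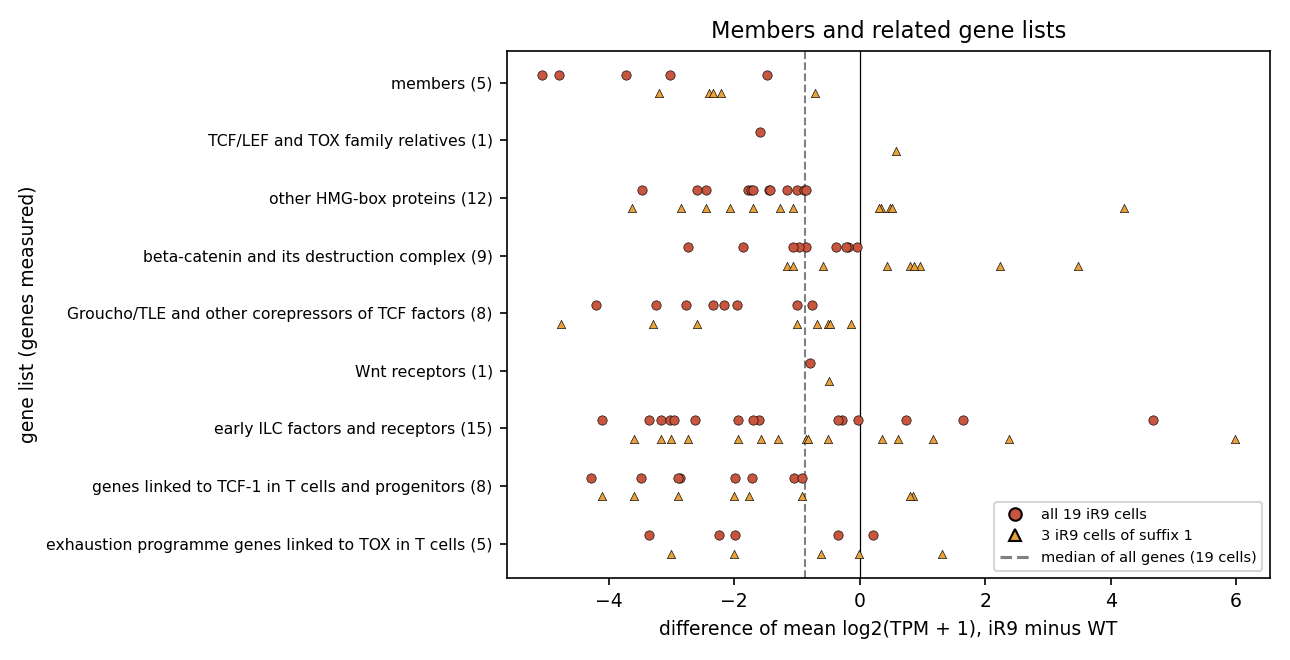
The x axis gives the difference of mean log2(TPM + 1), iR9 minus WT, of each measured gene, in rows by list; circles use all 19 iR9 cells, triangles the 3 of suffix 1, and the dashed line is the median of all genes at -0.88. The 5 members lie left of the dashed line, and triangles of several lists lie right of 0.

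Predicted genes, pseudogenes, Riken clones and ribosomal protein genes were left out, and 3109 other genes were detected in at least 30% of the 29 WT cells. Among these 3109, the genes whose TPM ranked most like each member over the WT cells were found by Spearman's rho. For Tcf7 they were Myh9 (0.724), Sppl2b (0.704), Hp1bp3 (0.697), Tiprl (0.634) and Cnpy2 (0.628). For Lef1 they were Cerk (0.614), Mlf2 (0.599), Nop2 (0.581), Cdk13 (0.556) and Ccni (0.550). For Tox they were Nkg7 (0.700), a cytotoxic granule gene detected in 17 of the 20 WT cells with Tox and in 3 of the 9 without, then Clk1 (0.697), S100a10 (0.657), Fam98c (0.625) and Ypel3 (0.602). For Tox2 they were Dennd1c (0.782), Styx (0.730), Zbtb16 (0.705), Rn45s (0.690) and Fcho1 (0.679). For Sox4 they were Arid1a (0.761), Polr1d (0.742), Kdm5a (0.691), Hmha1 (0.685) and Aff3 (0.682). No member was among the 5 genes most like another, with Tox2 at 0.600 just below the fifth gene of Tox. These are the top ranks of many genes over few cells. The Nkg7 counts come from the same cells that ranked it, so they add nothing to its rho. The rho that unrelated genes would reach, and the part of the number of genes per cell, were not tested.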

How the data were processed

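Per the labels' protocols, polyA RNA of sorted single cells was amplified and tagmented. Gene values are TPM as deposited, calculated by the authors and scaled to the same sum in each library, so read depth is unknown and no count test was used. The submitters' processing notes list mm10 as the build and, without saying what each did, StringTie 1.3.4, HISAT2 2.1.0, bcl2fastq 2.16.0.10 and SAMtools 0.1.19.

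Libraries of the same iR9 number with suffixes 2 and 3 were averaged. Means and SDs are of log2(TPM + 1) over cells, with a pseudocount of 1. Python 3.11.15, NumPy 2.4.6, pandas 2.3.3, SciPy 1.17.1 and matplotlib 3.10.9 were used, and the functions were tested on simulated data. Named genes were the members, up to 4 measured genes per related list with the largest absolute differences, Ctnnb1, the partners Id2, Gata3, Zbtb16 and Bcl11b, and the 5 genes most like each member by rho. Of these, 1 gene of a related list is not reported here but counts in its list. Other genes named (Dntt, the marker genes, Lyz2, Tpsb2 and the genes of the TCF-1 list left out by the filter) were chosen after their values were seen. The members and lists were chosen with earlier results of these data known. Sequences and promoter windows are from RefSeq tables. Alternatives covered the detection level, pseudocount, scaling, gene filter, treatment of same-number libraries, suffix, number of genes, marker-bearing cells and leaving out each cell.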

Additional observations from a re-analysis of the deposited data

How the results depend on the processing

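No paired analysis was possible because the labels do not link WT cells with iR9 cells, and the groups were not tested against each other. The 5 differences stayed negative under each setting run. They ranged from -6.84 to -2.35 for Tox, -5.59 to -2.22 for Tcf7, -5.50 to -2.03 for Sox4, -3.99 to -0.71 for Tox2 and -2.41 to -0.77 for Lef1, the extremes coming from pseudocounts of 0.1 and 10, suffix 1 alone and quantile normalization. With quantile normalization, which put the all-gene median at -0.08 in place of -0.88, they were -4.20 for Tox, -3.53 for Tcf7, -2.68 for Sox4, -2.28 for Tox2 and -0.77 for Lef1, so Lef1 no longer reached -1. It also stood above -1 with a pseudocount of 10 (-0.89, with an all-gene median of -0.43) and among cells with 1514 to 3238 genes (-0.89), as did Tox2 with suffix 1 alone (-0.71). At 1 TPM, Tcf7 was detected in 96.6% of WT and 52.6% of iR9 cells. At 100 TPM, Sox4 was in 27.6% of WT cells and at least 3 members were in 34.5%. With suffix 2 alone, suffix 3 alone or without suffix 1, the iR9 shares of Tox, Tox2 and at least 3 members were 0. With suffix 1 alone the iR9 shares were 66.7% for Tcf7, 0 for Lef1 and 33.3% each for Tox, Tox2 and at least 3 members. Leaving out each cell in turn took the iR9 shares of Tox and Tox2 from 0 (without cell 14-1) to 5.56%. The share of all genes at -1 or lower was 26.9% with no gene filter, and that at 1 or higher was 3.22% with no filter and 8.71% with genes in at least 30% of cells. Leaving out WT cells 21-1 and 26-1 and iR9 cell 12-1 was chosen after seeing the data. Unknown depth limits what can be said of cells without a transcript: a transcript below 10 TPM was not detected there, and is not shown to be absent.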

Other observations

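Low values of genes abundant elsewhere occurred in the table. In WT cells 4-1 and 28-1 the mast cell genes Tpsb2, Cpa3 and Cma1 stood at 15.3 to 30.8 TPM, which is 0.0250% to 0.0354% of their levels in iR9 cell 12-1. The highest values of the members under 10 TPM were 3.53 TPM for Tcf7 (0.0486% of its highest value in any cell), 0.750 for Lef1 (0.0763%), 1.74 for Tox (0.0955%), 1.87 for Tox2 (0.0885%) and 3.59 for Sox4 (0.555%). Whether reads crossed between libraries was not tested. Tcf7 was listed at 0 in 1 WT cell, 2-1, which had 915.6 TPM of Tox, and in 2 iR9 cells, in which no member was detected. Among cells with Tcf7 under 10 TPM, other members were detected in WT cells 1-1, 2-1, 5-1 and 28-1. The same held for iR9 cells 12 (suffixes 2 and 3), 28-3 and 32.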
